A study of Saccharomyces cerevisiae with 8 samples.

Results

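The 8 genes described here encode the iron-oxidising permease systems of Saccharomyces cerevisiae and its divalent metal transporters: FET3 (YMR058W) and FTR1 (YER145C) for the cell surface pair, FET5 (YFL041W) and FTH1 (YBR207W) for the vacuolar pair, FET4 (YMR319C) for low-affinity uptake, and SMF1 (YOL122C), SMF2 (YHR050W) and SMF3 (YLR034C) for the SMF family. They were chosen by name for these roles, 8 of 5449 yeast genes on the array, and each was matched by its symbol to 1 probe set, so that no choice between probe sets was needed. Total RNA came from 8 independent cultures of the laboratory strain DBY7286, 1 Affymetrix array per culture, 4 with 10 µM ferrous ammonium sulfate (low iron) and 4 with 300 µM (high iron). All 8 cultures shared a minimal medium with 1 mM Ferrozine, which chelates ferrous iron, 1 µM copper sulfate and 25 mM MES at pH 6.1, and were shaken at 30 °C until mid-log phase, at an A600 of 0.5 reached after about 18 h. High iron here therefore means more iron in the presence of the same chelator, and both conditions were measured in a single strain.

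Yeast cells reduce ferric iron at their surface and take up the ferrous form by several routes. In the high-affinity route the multicopper oxidase Fet3 oxidises ferrous iron and hands it to the permease Ftr1, and the oxidase works only once it has been loaded with copper. Fet5 and Fth1 are the related oxidase and permease of the vacuolar membrane, through which stored iron returns to the cytosol. Fet4 is a plasma membrane transporter of low affinity that carries iron, copper and zinc. The SMF proteins belong to the Nramp family of proton-coupled metal carriers: Smf1 sits at the cell surface and Smf2 in internal vesicles, both best known for manganese, and Smf3 exports iron from the vacuole. The iron-sensing factors Aft1 and Aft2 activate many genes of iron uptake when iron is scarce.

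The deposited values are MAS5 signals on a linear scale, with a mean of 500.2 on every array after trimming 2% at each end. On each array 98.8% to 99.4% of the yeast genes exceeded background, taken from probe sets for Schizosaccharomyces pombe on the same array. The 4 arrays per condition limit the precision, and after such scaling a change in RNA per cell common to most genes cannot be told apart from no change. Across genes, low-iron arrays correlated with each other at 0.983 to 0.996, high-iron arrays at 0.994 to 0.997, and arrays of opposite conditions at 0.954 to 0.969. Among control measures, 2 differed between low and high iron. For 17 control probe sets to ribosomal RNA, the median per array was 3082 ± 547 in low and 3998 ± 244 in high iron, and the ratio of 3′ to 5′ signal of the TDH1 control was 1.10 ± 0.0292 against 1.28 ± 0.0874 (SD, n = 4 each; two-sided exact permutation test, p = 0.0286 for each, the smallest that 4 against 4 arrays can give, not adjusted for 7 measures). By array, the ribosomal RNA median in low iron was 2682, 2567, 3371 and 3707 for arrays 1 to 4, beside 3744 to 4321 in high iron. The part of these 2 measures in the changes below was not tested. Of 5412 tested genes, those with a mean signal above background, 39.4% passed an adjusted p of 0.05 between the conditions, 16.8% higher and 22.7% lower in low iron.

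Transcripts of 7 of the 8 genes rose in low iron and that of SMF1 fell, and for each the 4 low-iron signals lay apart from the 4 high-iron signals. Such separation was also found for 38.5% of all tested genes, 16.8% with low iron above and 21.8% with low iron below, so the count of 8 has to be read beside the sizes of the changes. The median log2 change of the 8 genes was 0.88, beside -0.02 over all tested genes. The 4 oxidase and permease genes each rose at least 2-fold, which 1.37% of tested genes did. FTH1 was at that limit, and its log2 change was just under 1 with quantile normalization (0.994) and when array 2 of low iron (0.998), array 2 of high iron (0.994) or both arrays 1 and 2 of low iron (0.999) were left out. Ordered by size of rise among the 5412 genes, FTR1 was number 31, FET3 47, FET5 60, FTH1 72, SMF3 125, FET4 157 and SMF2 212.

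**Figure D1:**
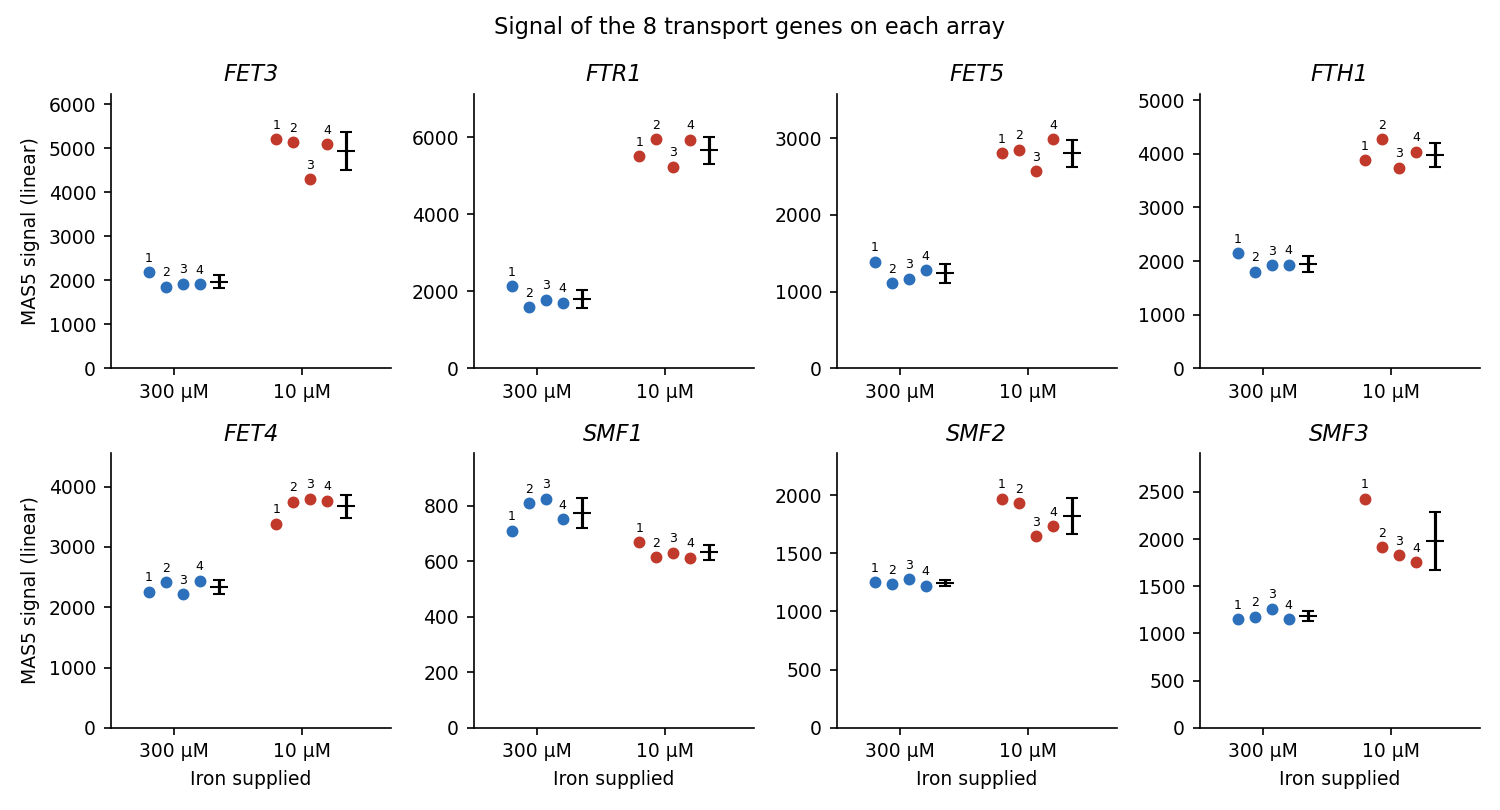
MAS5 signal (linear scale) of each gene on each array, by iron supplied. Points are single cultures numbered within their condition, and the bar beside them is the mean ± SD (n = 4). In 7 panels the low-iron points (red) lie above the high-iron points (blue), and in the SMF1 panel they lie below.

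The cell surface pair had the 2 largest changes of the 8 genes. FET3, the ferroxidase gene, read 5199.5, 5139.7, 4288 and 5094 in low-iron cultures 1 to 4 and 2177, 1847, 1915 and 1907 in high-iron cultures 1 to 4. Low-iron culture 3 was the lowest of its condition by a wide gap and still stood far above every high-iron culture. The log2 change was 1.33 ± 0.0732 (SE), a 2.51-fold rise (limma adjusted p = 4.38e-07).

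FTR1, the permease gene, read 5509, 5943, 5228 and 5931 in low iron and 2128, 1581, 1777 and 1699.5 in high iron. High-iron culture 1 was the highest of its condition, as it was for FET3. The log2 change was 1.66 ± 0.0851, a 3.16-fold rise (limma adjusted p = 2.64e-07). In low iron the FTR1 signal averaged 77.3% of the brightest signal on the same array and that of FET3 67.3%, so that both read near the top of the range, where changes can be compressed. The extent of such compression was not tested.

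Both genes of the vacuolar pair rose about 2-fold. FET5, the vacuolar oxidase gene, read 2805, 2852, 2571 and 2986 in low iron and 1389, 1109.8, 1169.9 and 1279 in high iron, a log2 change of 1.18 ± 0.0759 (2.27-fold; limma adjusted p = 1.55e-06). FTH1, its permease partner, read 3877, 4271, 3741 and 4039.5 in low iron and 2144, 1798, 1918 and 1934 in high iron. Its log2 change was 1.03 ± 0.0622 (2.04-fold; limma adjusted p = 9.27e-07). For both genes low-iron culture 3 was the lowest of the low-iron cultures and high-iron culture 1 the highest of the high-iron cultures, with a clear gap between the conditions. In low iron FET5 averaged 38.3% and FTH1 54.5% of the brightest signal.

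FET4, the low-affinity transporter gene, read 3386, 3748, 3798 and 3769 in low iron and 2258, 2414, 2213 and 2440.4 in high iron. Culture 1 was the low value of the low-iron condition, and the conditions did not overlap. FET4 rose 1.58-fold, with a log2 change of 0.66 ± 0.0533 (limma adjusted p = 9.44e-06), and its signals varied little among cultures, with a coefficient of variation of 5.27% in low and 4.84% in high iron.

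The SMF family split. SMF3, for the vacuolar iron exporter, read 2425, 1912, 1828 and 1753 in low iron and 1148, 1175, 1262 and 1151 in high iron, a 1.66-fold rise with a log2 change of 0.73 ± 0.0937 (limma adjusted p = 1.97e-04). Its low-iron spread was the widest of the 8 genes, with a coefficient of variation of 15.4% against 4.5% in high iron, because culture 1 read high. Without that array the log2 change was 0.63.

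SMF2, for the manganese carrier of internal vesicles, read 1967, 1932, 1646 and 1733 in low iron and 1250.4, 1233, 1277 and 1221 in high iron. The 4 high-iron cultures were close together, and every low-iron culture exceeded them. The log2 change was 0.54 ± 0.0640 (1.46-fold; limma adjusted p = 1.10e-04).

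SMF1, for the cell surface manganese carrier, read 669, 615, 631 and 612 in low iron and 709.6, 808, 825 and 751 in high iron. It was the only gene of the 8 that fell, 1.22-fold, with a log2 change of -0.29 ± 0.0654 (limma adjusted p = 0.00588). The nearest cultures of the conditions, low-iron culture 1 and high-iron culture 1, were separated by a small gap. Of all tested genes 22.7% fell, so a fall of this kind was common in these data.

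**Figure D2:**
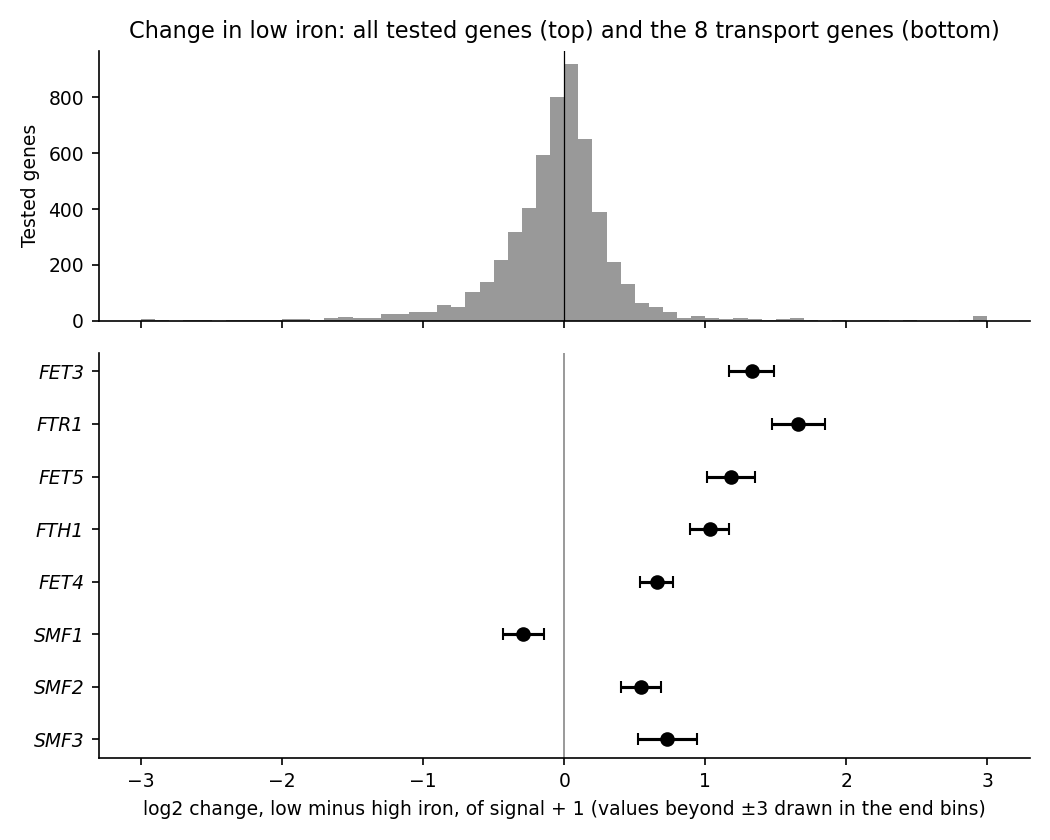
The upper panel is a histogram of the log2 change (low minus high iron, of signal + 1) of all 5412 tested genes, with values beyond the axis drawn in the end bins, and the lower panel gives the 8 transport genes with their 95% limma intervals. FTR1 and FET3 lie farthest to the right at 1.66 and 1.33, and SMF1 lies to the left of 0 at -0.29.

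Whether partners and paralogues changed by the same factor was asked with the ratio of their signals within each array, in 8 pairs. Levels of different probe sets are not comparable, but a ratio that moves between conditions shows unequal change. In each pair the 4 low-iron ratios lay apart from the 4 high-iron ratios, which gives the smallest p that the design allows (two-sided exact permutation test, p = 0.0286; 0.0286 adjusted over 8 pairs). FTR1 rose more than its oxidase partner FET3, with a difference in log2 change of -0.33 ± 0.0588 (SE, FET3 minus FTR1), and more than its vacuolar relative FTH1, by 0.63 ± 0.0450. FET3 rose more than the low-affinity gene FET4, by 0.67 ± 0.119. SMF1 differed from both relatives, by 1.02 ± 0.0843 for SMF3 minus SMF1 and by -0.83 ± 0.0728 for SMF1 minus SMF2. SMF1 fell and both relatives rose, each without overlap between the conditions. Ratios with SMF1 therefore had to lie apart, and their permutation test adds nothing to the changes of the single genes. The 5 differences given so far passed in every fit that left out 1 array (adjusted exact permutation p up to 0.0457).

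The other 3 differences were small and less secure. FET5 exceeded FTH1 by 0.15 ± 0.0436, FET3 exceeded FET5 by 0.14 ± 0.0499 and SMF3 exceeded SMF2 by 0.19 ± 0.0756 on the log2 scale (SE; exact permutation p = 0.0286 for each). In these pairs the nearest ratios of the 2 conditions were close together. On the log2 scale and relative to the high-iron mean, the lowest low-iron ratio of FET3 to FET5 was 0.0703. The highest high-iron ratio was 0.0673. For SMF3 to SMF2 these values were 0.0591 and 0.0565, and for FET5 to FTH1 0.0752 and 0.0612. The FET5 and FTH1 difference no longer passed without low-iron array 1 (0.14), low-iron array 4 (0.13) or high-iron arrays 1 (0.16), 2 (0.14), 3 (0.13) or 4 (0.17). That of FET3 and FET5 did not pass without low-iron arrays 1 (0.12) or 2 (0.13), without any single high-iron array (0.11 to 0.17), or under quantile normalization (0.11). That of SMF3 and SMF2 did not pass without low-iron array 1 (0.12) or any single high-iron array (0.17 to 0.21). In these fits the adjusted exact p was 0.0571 to 0.114. Leaving out an array cannot make ratios overlap that lay apart on all arrays. It leaves fewer regroupings, so that a few others as extreme as the observed one are enough to lose the call. The losses without 1 array therefore do not show that a difference depends on that array.

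**Figure D3:**
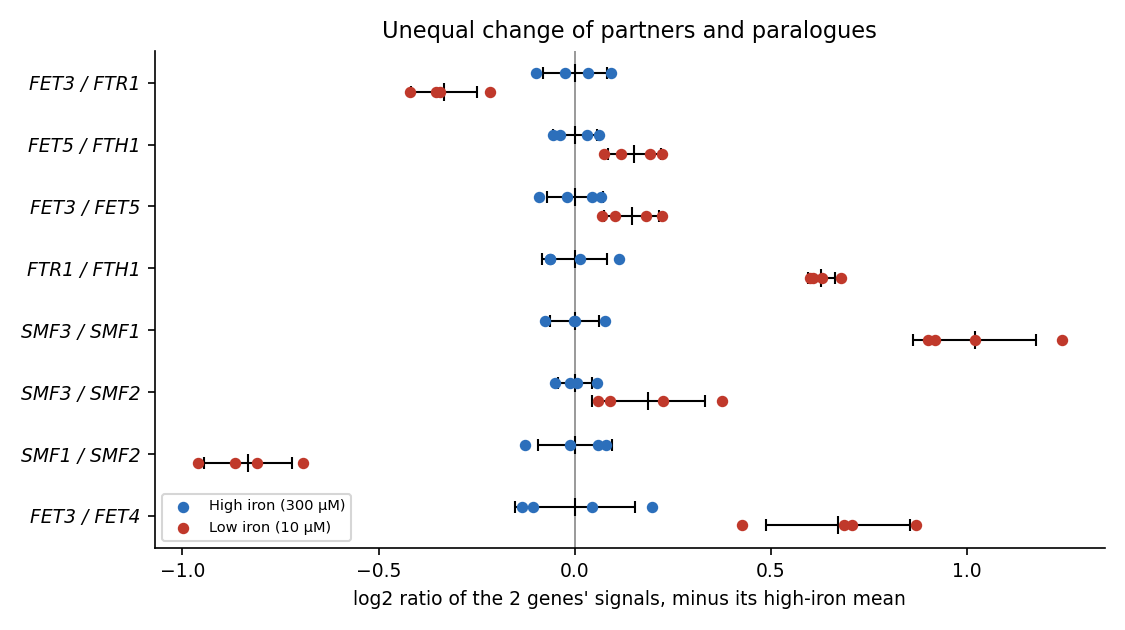
Log2 ratio of the signals of 2 genes on each array, minus the mean of that ratio in high iron, for 8 pairs of partners or paralogues. Points are single cultures and black bars the mean ± SD (n = 4). The low-iron points (red) are well clear of the high-iron points (blue) for FTR1 / FTH1 and both pairs with SMF1, and close to them for FET5 / FTH1, FET3 / FET5 and SMF3 / SMF2.

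Within a condition, the oxidase and permease genes deviated together on some arrays and not on others. All 4 of FET3, FTR1, FET5 and FTH1 were highest of the high-iron cultures on array 1, where they exceeded their condition mean by 0.14 to 0.25 on the log2 scale, and this array was the highest for 33.4% of all tested genes. All 4 were lowest on high-iron array 2 (29.9% of tested genes) and on low-iron array 3 (26.5% of tested genes), with deviations down to -0.18 and -0.20. All 4 were also above their condition means on low-iron arrays 2 (0.03 to 0.10) and 4 (0.02 to 0.09), and below them on high-iron array 3 (-0.07 to -0.01). They lay on both sides of their condition means on low-iron array 1 (-0.04 to 0.08) and on high-iron array 4 (-0.07 to 0.05). FET4 and the SMF genes held the highest and lowest places named above in 0, 0 and 1 of 4 cases. Among the 10 genes for reductive uptake and copper loading described below, 6, 2 and 3 did. The median deviation of all tested genes on each array lay between -0.02 and 0.03. Under quantile normalization, 2 of the 4 genes remained lowest on low-iron array 3, while the high-iron places were as before.

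**Figure D4:**
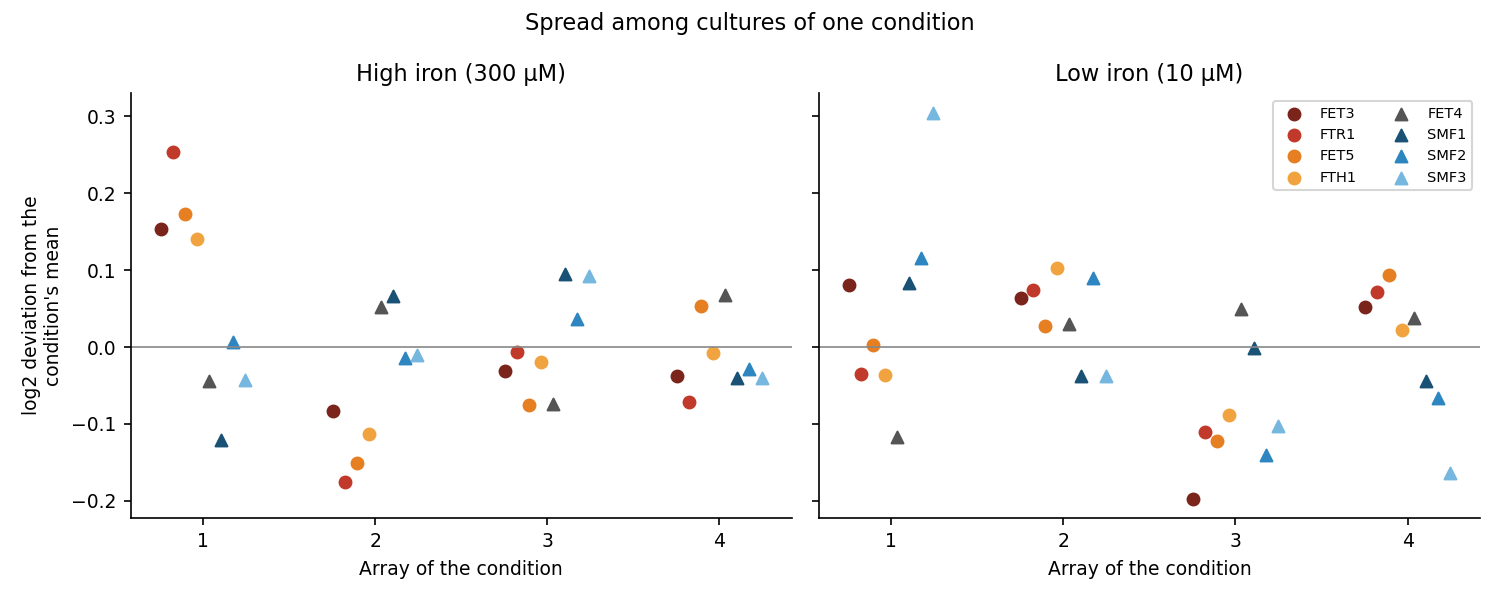
Deviation of each gene from the mean of its condition (log2 of signal + 1) on each array, high iron at left and low iron at right. Circles are the oxidase and permease genes and triangles FET4 and the SMF genes. The circles lie together above 0 on high-iron array 1 (0.14 to 0.25) and below 0 on high-iron array 2 and low-iron array 3, and on both sides of 0 on high-iron array 4 and low-iron array 1.

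Genes with the most similar pattern were sought among all tested genes, by the root mean square difference over the 8 arrays of log2 values centred on each gene's mean. This measure depends largely on the size of the change between conditions, so near genes are mostly genes that changed by a like factor. FTH1 (0.0925), FET3 (0.0947) and the vacuolar metalloreductase gene FRE6 (0.114) were nearest to FET5, where the median gene differed by 0.62. In every alternative setting FTH1 and FET3 both stayed among the 3 genes nearest to FET5. Nearest to FET3 were COT1 (0.0871), which encodes a vacuolar transporter of cobalt and zinc, FET5 (0.0947) and the biotin permease gene VHT1 (0.0974). FTR1 was closest to YGL039W (0.0472), the siderophore transporter gene ENB1 (0.0807) and ATG41 (0.123). FTH1 was closest to LSB3 (0.0777), the mitochondrial metal transporter gene MMT2 (0.0860) and FET5 (0.0925).

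Outside the oxidase and permease genes, none of the nearest genes were members. FET4 was nearest to ADH5 (0.0725), an alcohol dehydrogenase gene, YHR214C-E (0.0793) and APT2 (0.0796), and SMF3 to RAX1 (0.0813), PUF2 (0.0875) and PHO4 (0.0917), the activator of phosphate genes. SMF2 was nearest to GRH1 (0.0257), YLL056C (0.0364) and RIM8 (0.0367). SMF1 was nearest to MCR1 (0.0425), MIA40 (0.0430) and MRX14 (0.0435). Of these 24 neighbours, 9 to 24 were found again under the alternative settings, with 9 when low-iron arrays 1 and 2 were left out, so single names among them depend on the arrays used.

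On the chromosomes none of the 8 genes adjoins another. Of the 13 tested genes next to them in the RefSeq gene order, 2 were higher and 3 lower in low iron, beside 16.8% and 22.7% of all tested genes.

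Genes for ferric reductases and for copper supply to the oxidase included larger changes than those of FET3 and FTR1. Of 10 genes on this list 9 rose and none fell (limma; none fell at an unadjusted p of 0.05 either), beside 16.8% and 22.7% of all tested genes, with a median log2 change of 2.20. The list holds FRE6, whose product works at the vacuole and not with the surface pair, and without it, a choice made after seeing the data, 8 of 9 genes rose, with a median of 2.81. The surface reductase genes FRE2, FRE3 and FRE1 rose by 4.86, 3.74 and 3.12 on the log2 scale (limma adjusted p = 2.44e-10, 2.67e-10 and 2.25e-09). CCC2, for the pump that passes copper to Fet3 in the secretory pathway, went from 300.3 ± 14.0 to 2123 ± 325 (SD, n = 4; log2 change 2.81), while ATX1, for the copper chaperone that serves Ccc2, rose by 0.43 (limma adjusted p = 0.00609). GEF1, for a chloride transporter of the same pathway and named after its value was seen, had a log2 change of 0.09 and did not pass (adjusted p = 0.385).

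Other vacuolar metal genes moved in both directions around FET5, FTH1 and SMF3. Of 11 genes 5 rose and 2 fell, against 16.8% and 22.7% over all tested genes, with a median log2 change of 0.11. COT1, FRE6 and CTR2, the last for a vacuolar copper exporter, rose by 1.28, 1.26 and 1.26. CCC1, for the carrier that moves iron into the vacuole and so works against the products of FET5, FTH1 and SMF3, fell from 1034 ± 72.2 to 303.4 ± 20.8 (SD, n = 4), a log2 change of -1.77 (limma adjusted p = 5.91e-08).

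Transporters of other metals at the plasma membrane gave smaller changes. Of 7 genes 2 rose and 2 fell, where 16.8% of all tested genes rose and 22.7% fell, with a median log2 change of 0.01. CTR1, for the main copper transporter, rose by 0.64 (limma adjusted p = 5.37e-05), whereas CTR3, a second copper transporter gene, and ALR2, of the magnesium transporter family, fell by 0.42 and 0.41. With a pseudocount of 64 the change of CTR3 was -0.27. Quantile normalization gave -0.26 for CTR3 and ended the call for ALR2 (limma adjusted p = 0.0702). PHO84, for a phosphate carrier that also lets in manganese, rose by 0.17 from a high-iron signal of 4215 ± 185, a call lost in 7 of 20 alternatives, among them those without low-iron array 2 (0.15) or 4 (0.15) and without high-iron array 1 (0.15), 2 (0.17) or 3 (0.17), and a value of 0.10 under quantile normalization.

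Genes that sort metal transporters moved little. Of 8 genes 3 rose and none fell in limma, though 1 fell at an unadjusted p of 0.05, and the median was 0.18. Of all tested genes 16.8% rose and 22.7% fell. The share of the list called in either direction was near the 39.4% of all tested genes. SNX3, for a sorting nexin that recycles Fet3 and Ftr1, rose by 0.38 (limma adjusted p = 0.00157) and the vacuolar protease gene PEP4 by 0.21. Without low-iron arrays 1 and 2 the call of PEP4 was lost (0.16; adjusted p = 0.0853), and 1 gene of the list rose. TRE2, for an adaptor in the turnover of Smf1, rose by 0.20 with a call lost in 7 of 20 alternatives, among them those without low-iron array 1 (0.17), 2 (0.19) or 3 (0.19) and without high-iron array 1 (0.20), 2 (0.17) or 4 (0.20). BSD2, whose product directs Smf1 and Smf2 to the vacuole, had a log2 change of -0.16 and did not pass (limma adjusted p = 0.158).

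Of 10 regulators of metal and oxygen responses 4 rose, beside 16.8% of all tested genes, and 2 fell, beside 22.7%. AFT1, the iron-sensing activator, rose by 0.97, the haem-dependent regulator HAP1 by 0.90, ROX1, a repressor of hypoxic genes that is known to act on FET4, by 0.60, and YAP5, a factor of high-iron growth, by 0.53. ZAP1, the zinc-sensing activator that also acts on FET4, fell by 0.44 (limma adjusted p = 0.00510), from 335.8 ± 48.0 to 245 ± 4.30 (SD, n = 4). MAC1, the copper-sensing activator, had a log2 change of -0.17 with an adjusted p of 0.0496, and this call was lost in 16 of 20 alternatives, including each of the 8 that left out 1 array (-0.19 to -0.13).

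Mitochondrial carriers and manganese genes were mixed as well, and their counts stand beside 16.8% of all tested genes higher and 22.7% lower. Of 7 carrier genes 3 rose, MRS4 by 1.16, MMT2 by 0.95 and MTM1 by 0.57, and 2 fell, RIM2 by 0.59 and MMT1 by 0.34. MRS4 encodes a carrier of iron into mitochondria, and MMT1 and MMT2 encode mitochondrial metal transporters. Of 7 manganese genes 3 rose and 2 fell, with a median of -0.13: ATX2, for a Golgi manganese transporter, rose by 0.80 and GDT1, for a Golgi calcium and manganese carrier, fell by 0.52, while CCC1, MTM1 and PHO84 are shared with the lists above.

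**Figure D5:**
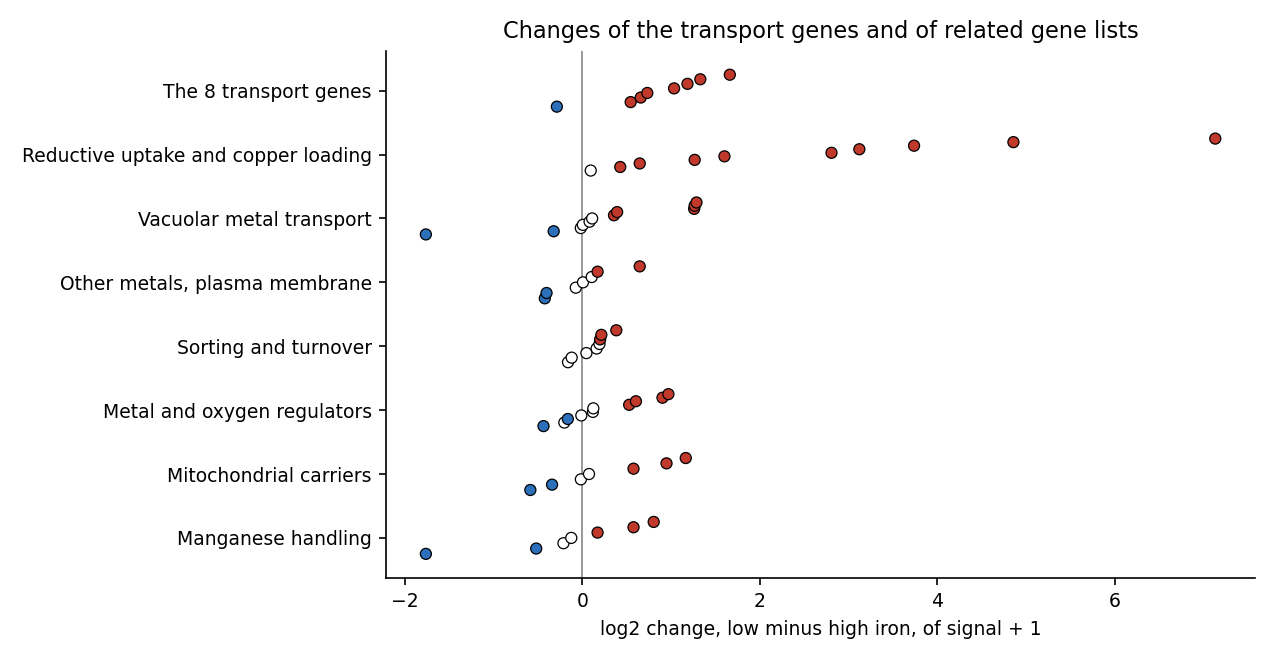
Log2 change (low minus high iron, of signal + 1) of the 8 transport genes and of each gene on the 7 related lists, 1 point per gene. Red points were higher and blue points lower in low iron at an adjusted p of 0.05, and white points did not pass. The reductive uptake and copper loading genes extend farthest to the right. Their outermost point, FRE5 at 7.13, is uncertain in size because its high-iron signal, 5.34 ± 2.76 (SD, n = 4), lay near background. That mean was below the 5.48 used to filter genes. Single high-iron signals ran from 1.25 to 7.07, and 3 of 4 exceeded the background of their own array. With signals raised to each array's own background the change of FRE5 was 6.63. The next point is FRE2 at 4.86. CCC1 lies farthest to the left at -1.77.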

How the data were processed

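Per the labels' protocols, total RNA was isolated with Trizol and its biotin-labelled product was measured on Affymetrix yeast arrays. The authors deposited MAS5 signal intensities, 1 per probe set and array, on a linear scale; MAS5 is the tool named in the submitters' processing notes. The labels do not state its settings. The trimmed means show that arrays had been scaled to a common level, which hides any change in total mRNA per cell. Of 10928 probe sets, 5498 matched an S. cerevisiae gene in RefSeq R64, used for names and gene order only, and 1746 matched other gene identifiers, in the style of S. pombe, and served as background. The brightest probe set of each gene was used, and the 5412 genes with a mean signal above 5.48, the 95th percentile of background, were tested; 37 were not.

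Low iron was compared with high iron on log2(signal + 1) with limma 3.58.1 in R 4.3.3 (eBayes with an intensity trend, two-sided, no covariate), with p-values adjusted by Benjamini-Hochberg over the 5412 genes. Log2 changes are on that scale and understate those of dim genes. Groups follow the iron dose in the labels. Pairs were compared by two-sided exact permutation over 70 regroupings. The procedure was tested on simulated data. The members, pairs and lists were chosen with earlier results of these data known. Named are the members, up to 4 genes per list with the lowest adjusted p, CCC2, ATX1, CCC1, FRE6, BSD2, MRS4, ROX1, ZAP1 and CTR1, and the 3 most similar genes per member; GEF1, MAC1 and MMT1 were named after their values were seen. Alternatives covered pseudocounts of 16 and 64, scaling, filter, background, variance model, probe sets, a block of description numbers, and arrays left out. Figures were drawn with matplotlib 3.10.9.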

Additional observations from a re-analysis of the deposited data

Results flagged for a closer look

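Of 16 groups of 4 signals, 8 genes in 2 conditions, 2 held a culture that stood farther from the other 3 than Dixon's 95% limit for a gap relative to the group's range, where chance gives about 1 in 20. FET3 in low-iron culture 3 read 4288 against 5094 to 5199.5 in the others, a gap of 0.884 of the range. Without that array the log2 change of FET3 was 1.39. FET4 in low-iron culture 1 read 3386 against 3748 to 3798, a gap of 0.879 of the range, and without that array its log2 change was 0.70.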

How the results depend on the processing

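All 8 genes kept the direction and the call of their change in each of 20 alternatives (limma adjusted p up to 0.0231). Alternatives for filter, background, intensity trend and probe sets could not alter the log2 changes of these genes. Each gene has 1 probe set, far above background, and the trend enters only the variance. The log2 changes were 1.60 to 1.74 for FTR1, 1.26 to 1.39 for FET3, 1.13 to 1.24 for FET5 and 0.994 to 1.08 for FTH1. For FET4 they were 0.620 to 0.700, for SMF3 0.597 to 0.785, for SMF2 0.440 to 0.590 and for SMF1 -0.33 to -0.25. The lowest values of SMF3 and SMF2 came without low-iron arrays 1 and 2. Counts over all genes stayed within 1.5 times, at 694 to 1181 higher and 993 to 1301 lower. Which direction had more genes depended on the scaling. Quantile normalization gave 1181 higher and 1091 lower and median centring 1141 and 1068, where the main fit gave 907 and 1226. No paired analysis was possible because the labels give the conditions no shared replicate numbers. Of the pair differences, FET3 minus FET5 was no longer past the threshold under quantile normalization, at 0.106 (adjusted exact p = 0.0571). Leaving out 1 array gave 0.114 to 0.169 for FET3 minus FET5, 0.128 to 0.177 for FET5 minus FTH1 and 0.125 to 0.230 for SMF3 minus SMF2, with calls lost in 6, 6 and 5 of 8 fits. In those fits the ratios of low and high iron still lay apart, and the test had fewer regroupings to set them against. Without low-iron arrays 1 and 2 together, the smallest possible p is 0.0667, so no pair can pass. The differences were then 0.555 for FET3 minus FET4, 0.0866 for FET3 minus FET5, -0.386 for FET3 minus FTR1, 0.169 for FET5 minus FTH1, 0.641 for FTR1 minus FTH1, -0.751 for SMF1 minus SMF2, 0.909 for SMF3 minus SMF1 and 0.157 for SMF3 minus SMF2. The number of arrays and the top of the signal range limit how finely changes of FET3 and FTR1 can be compared.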
